A study of Mus musculus with 2 samples.

Results

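The oxidative phosphorylation genes of mononuclear phagocytes and rods were examined in retinas of C57BL/6j pups at postnatal day 17. One group had oxygen-induced retinopathy (OIR), a model in which newborn pups breathe high oxygen and then return to room air, so that abnormal vessels grow. The other group was the age-matched control kept in room air (RA). Cells positive for CD11b and F4/80, surface proteins of myeloid cells, were sorted from pooled retinas, and 1 single-cell library was made per condition with 10x 3′ V3 reagents. The members were the genes whose symbols begin with Nduf (a, b, c, s or v), Sdha to Sdhd, Uqcr, Cox4 to Cox8 or Atp5, along with the mitochondrial (mt) mRNAs, with names of pseudogenes left out. The rule took 106 of 31053 features. Of these, 13 were mt mRNAs and 93 were nuclear, and the nuclear ones held 82 features of 81 subunit genes, since Atp5o was listed under 2 identifiers (36 of complex I, 4 of complex II, 8 of complex III, 18 of complex IV and 15 of complex V). Another 11 matches were assembly factors or relatives of subunits, among them 8 Ndufaf genes. Ndufa4 was counted with complex IV. The rule did not reach Cyc1, Usmg5 or Atp5mpl.

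The respiratory chain sits in the inner mitochondrial membrane. Complexes I and II pass electrons from NADH and succinate to ubiquinone, complex III passes them to cytochrome c, and complex IV passes them to oxygen, while complexes I, III and IV pump the protons that drive ATP synthase (complex V). The mitochondrial genome encodes part of every complex other than complex II, whose subunits are all nuclear. Rods are packed with mitochondria in the inner segment, whereas microglia are the resident phagocytes of the retina and can also rely on glycolysis.

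The RA library held 1449 cells and 12810892 UMIs, the OIR library held 1259 cells and 9835402 UMIs, and no cell barcode was found in both. After cells with over 20% mitochondrial UMIs and the cells with the most genes had been left out, 1295 RA and 1179 OIR cells remained. Values below are CPM (the share of a class's UMIs times 1000000), summed over the cells of a class, with 95% intervals that cover counting error alone. Because each condition had 1 library, no test between conditions was possible, and a difference between OIR and RA cannot be told apart from a difference between 2 libraries. A gene was called higher or lower where its CPM differed by 1.5-fold or more, among genes with a mean of at least 20 CPM over both libraries.

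The 4 cell classes compared were all named from marker genes. Microglia-like cells (729 RA, 389 OIR) held UMIs of 12 of 12 microglial markers, summing to 31829 CPM in RA and 41961 CPM in OIR. They came from a pair of clusters led by Tnf and Arl5c or by Rrad and Rhob, and took their name from the median of the marker list because none of its genes stood among their 10 leading genes. Macrophage-like cells (74 RA, 90 OIR) held 11 of 11 macrophage markers, at 7970 and 8056 CPM. Such counts do not set these classes apart, because microglia held the same 11, at 135 and 221 CPM. Macrophages in turn held all 12 microglial markers, at 21651.5 and 28023 CPM. Monocyte-like cells (52 RA, 90 OIR) held 11 of 11 monocyte markers, at 5529 CPM in RA and 3721 CPM in OIR. In that class the microglial list went from 6864 to 14363 CPM and 4 neutrophil genes (S100a8, S100a9, Retnlg, Csf3r) from 1855 to 425 CPM. The microglial list was also higher in OIR in microglia and macrophages. Whether the makeup of the monocyte-like class differed between the libraries was not tested, nor was its part in the results below. Rod-like cells (189 RA, 153 OIR) had passed the sort although they are not myeloid. They were led by Pde6g, Gngt1, Rcvrn and Nrl, their median UMI count was 1457 in RA and 1035 in OIR, and 88.6% of them lacked a UMI of the nuclear RNA Malat1. Rod RNA was also found outside rods. The 12 rod markers summed to 103 CPM in RA and 218 CPM in OIR microglia, to 786 and 375 CPM in macrophages and to 56.9 and 40.5 CPM in monocytes, against 128686 and 129850 CPM in rods. The part of this RNA in the results was not tested.

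Promoters of 4 members show the sequences from which nuclear subunits are transcribed. Nuclear respiratory factor 1 (NRF1), the ETS factor GABP and YY1 are known regulators of such genes. Each window below runs from 250 bases before to 50 bases after the start site in RefSeq (GRCm38.p6). It is printed 5′ to 3′ on the strand of the gene, and capitals mark only the NRF1, ETS and GABP, and YY1 motifs. Sdhb (chr4:140961021-140961320, plus strand) and Uqcrh (chr4:116075021-116075320, minus strand) both hold the ETS and GABP motif CCGGAAG or its complement CTTCCGG. In microglia Sdhb was higher and Uqcrh lower in OIR, and their transcripts are annotated at 1142 and 547 bases. The part of the motif in these ratios was not tested. Sdhb also holds GCATGCG, the core of the NRF1 motif, and Ndufaf5 (chr2:140170396-140170695, plus strand) holds it on both strands in 1 overlapping run. Ndufa3 (chr7:3617123-3617422, plus strand) holds the YY1 motif AAGATGGC. It also holds CACGT, the complement of the ACGTG counted below, which is left in lower case.
Sdhb: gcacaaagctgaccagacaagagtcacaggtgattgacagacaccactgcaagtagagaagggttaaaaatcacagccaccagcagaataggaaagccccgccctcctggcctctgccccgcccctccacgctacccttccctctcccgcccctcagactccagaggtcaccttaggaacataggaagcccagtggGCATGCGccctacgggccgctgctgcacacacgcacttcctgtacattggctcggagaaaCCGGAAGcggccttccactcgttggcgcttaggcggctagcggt
Uqcrh: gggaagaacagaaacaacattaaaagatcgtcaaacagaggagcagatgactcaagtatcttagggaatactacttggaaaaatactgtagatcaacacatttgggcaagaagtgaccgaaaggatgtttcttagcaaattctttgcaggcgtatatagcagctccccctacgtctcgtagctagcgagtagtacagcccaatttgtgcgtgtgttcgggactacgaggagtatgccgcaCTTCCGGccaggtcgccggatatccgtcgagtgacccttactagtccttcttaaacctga
Ndufaf5: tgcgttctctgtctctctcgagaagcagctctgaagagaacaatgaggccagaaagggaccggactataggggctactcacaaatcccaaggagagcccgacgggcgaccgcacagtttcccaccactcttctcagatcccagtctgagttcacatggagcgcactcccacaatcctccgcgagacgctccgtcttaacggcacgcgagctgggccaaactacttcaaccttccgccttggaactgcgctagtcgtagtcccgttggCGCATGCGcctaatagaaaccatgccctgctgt
Ndufa3: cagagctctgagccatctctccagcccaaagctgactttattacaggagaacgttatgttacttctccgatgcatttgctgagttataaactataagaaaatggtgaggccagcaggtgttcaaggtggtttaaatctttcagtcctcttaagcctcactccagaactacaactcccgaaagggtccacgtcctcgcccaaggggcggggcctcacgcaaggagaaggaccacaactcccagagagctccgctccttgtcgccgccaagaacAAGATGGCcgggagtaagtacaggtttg

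Of 81 nuclear subunit genes, 67 were matched to a promoter. On either strand, GCATGCG was found in 11 of the 67 (16.4%) and in 4.01% of the 27025 promoters of all genes. CCGGAAG was found in 16 (23.9% against 9.93%) and AAGATGGC in 10 (14.9% against 3.19%). The core of the hypoxia response element, ACGTG, was found in 17 (25.4% against 21.8%), and TAATCC, the core bound by the photoreceptor factor CRX, in 5 (7.46% against 8.14%). These are matches of letters and do not show binding. In microglia the mRNAs of Nrf1, Gabpa and Yy1 differed little between the libraries. Nrf1 stood at 29.1 CPM in RA and 29.7 CPM in OIR, Gabpa at 24.9 and 22.4 CPM, and Yy1 at 145 and 137 CPM, and the 95% interval of each ratio included 1. Gabpb1, a second gene of GABP, went from 52.0 to 42.2 CPM (log2 ratio -0.30, -0.58 to -0.026).

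In microglia the complexes did not move together. Complex II was higher in OIR, complexes III and IV were lower, complex I was lower by less, and complex V differed little as a whole while its members went both ways. The summed level of complex II was 233 CPM in RA and 416 CPM in OIR, a log2 ratio of 0.83 (95% interval 0.73 to 0.93). Complex IV stood at 2351 and 1474 CPM (log2 ratio -0.67, -0.72 to -0.63), and complex III at 1092 and 725 CPM (-0.59, -0.66 to -0.53). Complex I stood at 2774 and 2297 CPM (-0.27, -0.31 to -0.24) and complex V at 2754 and 2955 CPM (0.10, 0.068 to 0.14). All nuclear subunits together fell from 9205 to 7867 CPM (-0.23, -0.25 to -0.21), while the 13 mt mRNAs were at 43028 CPM in RA and 49259 CPM in OIR (0.20, 0.19 to 0.20). Of the 74 nuclear subunits that reached 20 CPM, 33 were lower, 14 were higher and 27 lay between. Among all 5400 genes at that level 12.2% were lower and 15.3% higher, and the median log2 ratio was 0.051 against -0.23 for the subunits. With the whole 95% interval past 1.5-fold, 30 subunits were lower and 8 higher, against 6.02% and 7.44% of all genes.

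**Figure D1:**
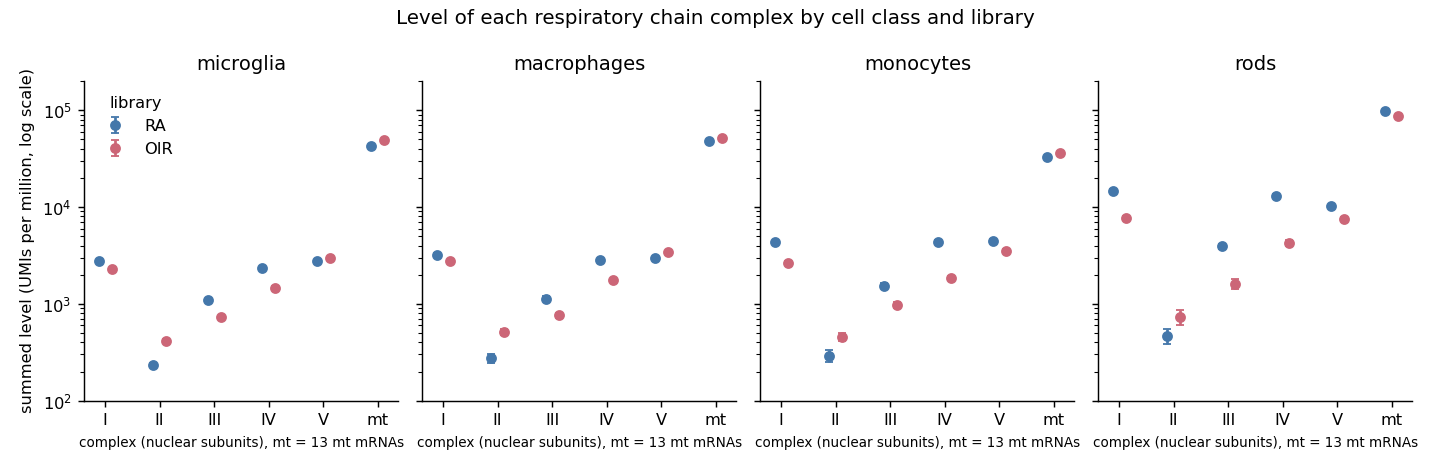
Summed level (CPM, log axis) of the nuclear subunits of complexes I to V and of the 13 mt mRNAs in RA (blue) and OIR (red), for microglia, macrophages, monocytes and rods; bars are exact Poisson 95% intervals, often smaller than the points. Complex II is the only nuclear complex that is higher in OIR in all 4 classes (in microglia 233 to 416), and complexes I, III and IV are lower in all 4.

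The log2 ratio of the nuclear subunits was higher for long than for short transcripts in every class. In the microglia, 34 nuclear subunits with transcripts under 700 bases summed to 5570 CPM in RA and 3305 CPM in OIR (-0.75, -0.78 to -0.72), with 23 lower and none higher, and the median of their log2 ratios was -1.09. The 13 subunits from 700 to under 1000 bases stood at 1237 and 1144 CPM (-0.11), and the 27 of 1000 bases or more at 2397 and 3418 CPM (0.51, 0.48 to 0.55), with 13 higher and 5 lower. From the short to the long length class the ratio was -0.71, -0.0021 and 0.59 in macrophages and -1.24, -0.43 and 0.20 in monocytes. In rods all 3 length classes were lower (-1.53, -1.01 and -0.11), and of the 27 long members 4 were higher and 8 lower. Across the 74 subunits Spearman's rank correlation between log2 ratio and length was 0.72 in microglia, 0.70 in macrophages, 0.68 in monocytes and 0.69 in rods. Under 1500 bases it was 0.66, 0.69, 0.63 and 0.65 for the subunits. Genes outside the respiratory chain under 1500 bases showed the same sign (0.34, 0.34, 0.39 and 0.44). Over all lengths these other genes had the opposite sign (-0.32, -0.26, -0.15 and -0.011). Genes are not independent replicates, and the transcripts share the 2 libraries and their depth, so these are descriptions. Cytosolic ribosomal protein mRNAs, which are short as well, had a median log2 ratio of -1.27 in microglia, -1.13 in macrophages, -1.32 in monocytes and -1.38 in rods.

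When each gene was set against the median ratio of other genes of like length, the nuclear subunits of microglia no longer leaned down. Their median was 0.11 above that of the length class, with 12 higher and 12 lower of 74, where 10.8% of all genes were higher and 11.8% lower under the same centring. The macrophage median was 0.055, with 12 higher and 13 lower (13.7% and 16.5% of all genes). The monocyte median moved from -0.77 to -0.079, with 3 higher and 16 lower (14.9% and 14.9%). In rods it was -0.46, with 4 higher and 27 lower (19.8% and 20.2%). The complex II median stayed above its length class in all of them, at 0.68, 0.65, 0.40 and 0.28, although in rods only 2 of the 4 subunits did. The complex IV median stayed below, at -0.13 in microglia (2 higher, 2 lower), -0.22 in macrophages, -0.41 in monocytes and -0.69 in rods. That of complex III, lower in all of them before centring, turned to 0.22, 0.10, 0.28 and 0.028.

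**Figure D2:**
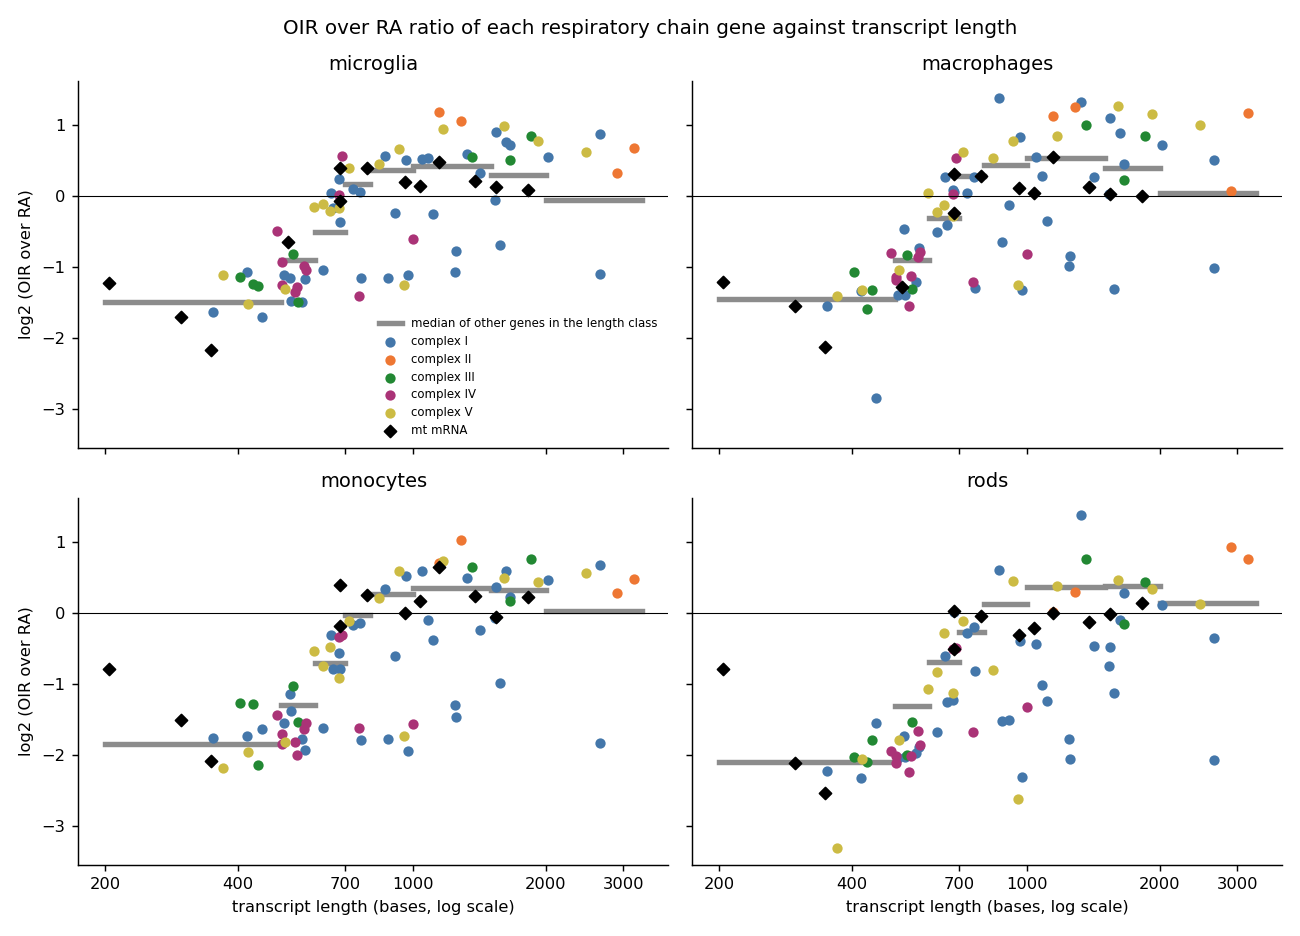
log2 ratio of OIR over RA against annotated transcript length (bases, log axis) for each nuclear subunit (coloured by complex) and mt mRNA (black diamonds) at 20 CPM or more, in 4 cell classes; grey bars are the median of other genes in the length class. Members under 700 bases lie mostly below 0 and those of complex II lie above 0, while in rods the long members centre near 0 (median -0.095).

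Complex II, succinate dehydrogenase, also works in the citric acid cycle. In microglia Sdhb, the iron-sulfur subunit, went from 68.1 to 155 CPM (1.18, 1.01 to 1.36). Sdhd and Sdhc, which anchor the complex in the membrane, went from 48.6 to 101 CPM (1.05, 0.84 to 1.27) and from 42.6 to 67.6 CPM (0.67, 0.42 to 0.91). Sdha, the flavoprotein that oxidises succinate, went from 74.0 to 92.5 CPM (0.32, 0.12 to 0.52) and did not reach 1.5-fold. In macrophages the log2 ratios were 1.26 for Sdhd, 1.17 for Sdhc, 1.12 for Sdhb and 0.073 for Sdha. Against a background of 23% of genes higher and 13.6% lower in macrophages, 17 of 74 nuclear subunits were higher and 32 lower. In monocytes Sdhd (1.03) and Sdhb (0.71) were higher by 1.5-fold or more, although the ratio of Sdhd turned to -0.17 when every cell was thinned to 1000 UMIs. Rods differed, since Sdha went from 208 to 394 CPM (0.92, 0.42 to 1.43; 61 and 76 UMIs), whereas Sdhb stood at 92.1 and 93.3 CPM (27 and 18 UMIs).

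Complex I split between core and accessory subunits in microglia. Core subunits carry the redox centres. Ndufv2 went from 53.8 to 100.5 CPM (0.90), Ndufs1 from 21.3 to 39.1 CPM (0.88) and Ndufv1 from 35.9 to 58.9 CPM (0.71). Ndufs3 and Ndufs8 had log2 ratios of 0.52 and 0.51, and Ndufs7, a core transcript under 800 bases, stood at 80.3 and 83.5 CPM (0.056). The lowest ratios belonged to the small accessory subunits Ndufb2, from 56.5 to 17.3 CPM (-1.71, -2.12 to -1.32), and Ndufa3, from 80.5 to 26.0 CPM (-1.63, -1.96 to -1.31). In macrophages Ndufb2 went from 74.0 to 10.3 CPM (-2.85). Length did not separate all of the members. Of those annotated at 1000 bases or more, 5 were lower in all 4 classes, namely Ndufa11, Ndufa13, Ndufc1, Ndufv3 and Cox7b, which were named after their values were seen. Ndufa11, annotated at 2661 bases, went from 66.2 to 30.8 CPM in microglia (-1.10) and from 239 to 57.0 CPM in rods (-2.07). The lengths come from an older annotation, in which Ndufa11, Ndufa13 and Ndufc1 have 1 transcript each.

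Complex III showed the same split. Its core subunit Uqcrc2 went from 73.4 to 131 CPM in microglia (0.84), the Rieske iron-sulfur protein Uqcrfs1 from 85.6 to 125 CPM (0.55), and Uqcrc1 from 79.1 to 112 CPM (0.51). Uqcrh, the hinge protein near cytochrome c1, whose promoter is shown above, went from 365 to 130 CPM (-1.49, -1.64 to -1.35) and the small subunit Uqcr11 from 141 to 58.3 CPM (-1.28). In complex IV, 8 of 11 subunits were lower and none was higher in microglia. Cox7a2 went from 143 to 53.8 CPM (-1.41), Cox7c from 285 to 112 CPM (-1.36) and Cox8a from 412 to 170 CPM (-1.28). Cox5a, from 106 to 156 CPM (0.56), and Cox4i1, at 489 and 492 CPM (0.0088, -0.074 to 0.091), were its highest ratios. Both are annotated at just under 700 bases.

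ATP synthase members went both ways in microglia. The catalytic head was higher in OIR, with Atp5b (beta) at 261 and 448 CPM (0.78) and Atp5a1 (alpha) at 212 and 325 CPM (0.62). Atp5c1 (gamma), the shaft, went from 171 to 328 CPM (0.94), and Atp5f1 (subunit b) of the peripheral stalk from 189 to 373 CPM (0.98, 0.87 to 1.09). The small subunits Atp5e (epsilon) and Atp5l (subunit g) went from 328 to 115 CPM (-1.52) and from 237 to 95.9 CPM (-1.30). The c-ring genes, which encode 1 mature protein, differed less, with log2 ratios of -0.15 for Atp5g1, -0.22 for Atp5g2 and 0.39 for Atp5g3.

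Among the mitochondrially encoded members the genes with the shortest annotation had the lowest ratios. In microglia 4 of 13 were lower and none was higher by 1.5-fold, and these 4 are the ones annotated under 600 bases. The annotation gives the length of each gene, and mt-Nd4l and mt-Atp8 share their mRNA with mt-Nd4 and mt-Atp6, so for this pair it is not the length of the mRNA. mt-Nd3 went from 1832 to 409 CPM (-2.16, -2.24 to -2.09), mt-Nd4l from 293 to 90.3 CPM (-1.70), mt-Atp8 from 95.03 to 40.8 CPM (-1.22) and mt-Nd6 from 32.8 to 20.9 CPM (-0.65). The 9 members with longer annotations together stood at 40775 CPM in RA and 48698 CPM in OIR (0.26). Among them mt-Cytb, the cytochrome b of complex III, went from 4427 to 6131 CPM (0.47), mt-Co3 from 6958 to 9172 CPM (0.40) and mt-Atp6 from 7783 to 10198 CPM (0.39), while mt-Co2 stood at 5695 and 5437 CPM (-0.067). mt-Nd3 held 4.26% of mt UMIs in RA and 0.830% in OIR microglia, and it was as far apart in the other classes, at 3.72% and 0.789% in macrophages, 3.90% and 0.844% in monocytes and 3.25% and 0.628% in rods.

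The level of all mt mRNAs together was 47580 and 51312 CPM in macrophages, a log2 ratio of 0.11 that became -0.020 under TMM and -0.031 under DESeq2 scaling, so its direction depended on the scaling. These scalings moved all log2 ratios by -0.13 and -0.14 in macrophages and by -0.18 and -0.16 in rods. Monocytes had 32936 and 35981 CPM (0.13) and rods 97570 and 87520 CPM (-0.16, -0.18 to -0.13). Cells above 20% mt UMIs were not counted, which bears on rods most, since the upper quartile of their mt share was 12.6% in RA and 11.4% in OIR. Without that limit the rod ratio was -0.38. In rods mt-Nd6 had 14 UMIs in RA and none in OIR. With OIR set to 3 UMIs (15.5 CPM) it was 3.07-fold lower, a ratio that rests on the set value and is not a lower bound.

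**Figure D3:**
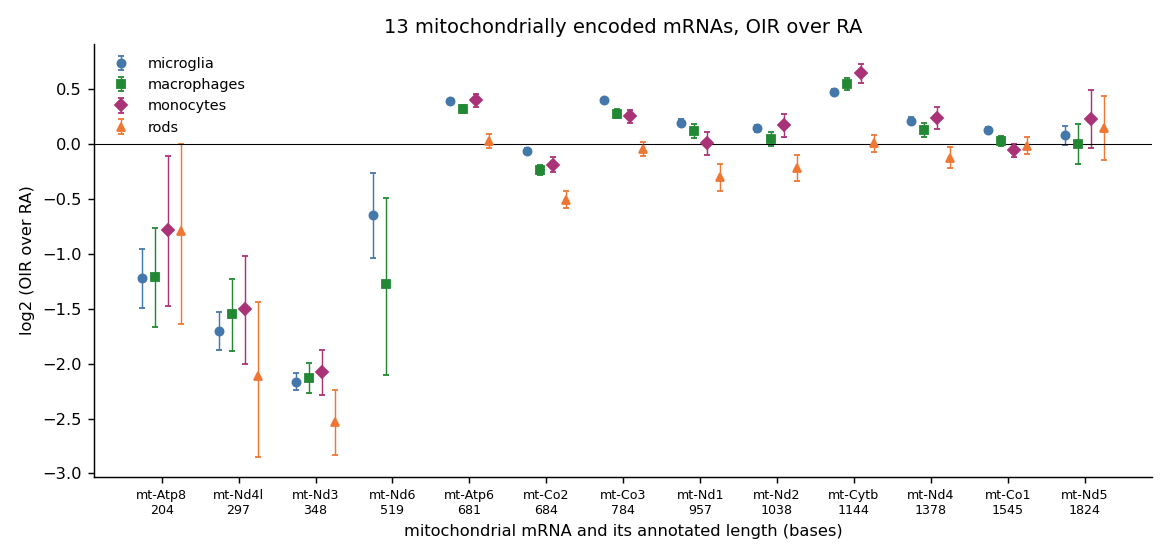
log2 ratio of OIR over RA for the 13 mt mRNAs, ordered by annotated length (bases), in 4 cell classes; bars are exact conditional 95% intervals, and mt-Nd6 is left out for monocytes (5 and 8 UMIs) and rods (no OIR UMI). The members with the shortest annotations lie below 0 in every class shown, with mt-Nd3 between -2.53 and -2.08, and the 9 longer ones lie between -0.51 and 0.64.

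Outside microglia the nuclear subunits were lower by most in rods. Their sum went from 42392 to 21885 CPM (-0.95, -1.005 to -0.903), with 45 of 74 lower and 5 higher, where 17.4% of all genes were lower and 28.3% higher. With the whole interval past 1.5-fold, 38 subunits were lower and none was higher, against 3.36% and 1.28% of all genes. Complex IV went from 13069 to 4291 CPM (-1.61), complex III from 3918 to 1612 CPM (-1.28), complex I from 14777 to 7727 CPM (-0.94) and complex V from 10168 to 7530 CPM (-0.43). Complex II, on 135 RA and 140 OIR UMIs, went from 460 to 726 CPM (0.66, 0.30 to 1.01). Among single genes, Ndufa4, a subunit of complex IV, went from 3416 to 886 CPM (-1.95, -2.19 to -1.71), and the lowest ratio was that of Atp5k, from 617 to 62.2 CPM (-3.31; 181 and 12 UMIs). Atp5b stood at 1691 and 2146 CPM (0.34, 0.15 to 0.53). Ndufa9 was the highest at 71.6 and 187 CPM (1.38, 0.57 to 2.23) on 21 and 36 UMIs. Atp5k and Ndufa9 were named after their values were seen.

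Monocytes lay between rods and microglia. Their nuclear subunits went from 14984 to 9478 CPM (-0.66, -0.70 to -0.62), with 39 of 74 lower and 9 higher, where 13.9% of all genes were lower and 19.5% higher. Cox8a went from 638 to 160 CPM (-1.999), and complex IV as a whole from 4377 to 1854 CPM (-1.24). In macrophages the nuclear sum was 10419 and 9208 CPM (-0.18, -0.21 to -0.14). Over all 4 classes, 31 of 74 subunits were lower in each, none was higher in each, and 15 had ratios above 0 in each, where 5.84%, 3.19% and 33.4% of all genes were so. The classes come from the same 2 libraries and are not independent. Of the 34 subunits under 700 bases 21 were lower in each class, and of 140 other genes of that length 57.1% were. Of the 15 above 0 in each, 13 were of 1000 bases or more. No subunit was higher by 1.5-fold in one class and lower by 1.5-fold in another.

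Per cell, the median share of UMIs from nuclear subunits was 0.889% in RA and 0.711% in OIR microglia, and 4.18% and 2.22% in rods. The quartiles were 3.46% and 4.93% for RA rods and 1.69% and 2.63% for OIR rods, so the quartile ranges did not overlap. Monocytes had 1.46% and 0.932%. For the mt mRNAs the quartile ranges did overlap, at a median of 4.17% (2.99% to 5.33%) in RA and 4.85% (3.72% to 5.89%) in OIR microglia. Cells of 1 library are not replicates, so these are descriptions of 2 libraries.

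Within a library, where both classes share the preparation, the chain stood highest in rods among the 4 classes. In RA the nuclear subunits were 4.61-fold higher in rods than in microglia (log2 2.20), with 68 of 74 higher and none lower, where 38% of all genes were higher and 39.8% lower. The 13 mt mRNAs were 2.27-fold higher. Short and long transcripts gave the same ratio here (log2 2.19 under 700 bases and 2.18 at 1000 bases or more). In OIR the nuclear ratio was 2.78-fold, again with 68 of 74 higher but 1 lower (39.1% and 37.8% of all genes), and the mt ratio was 1.78-fold. Complex IV (log2 2.47) and complex I (2.41) led in RA, and complex II had the smallest difference (0.98). Single genes ranged widely in RA. Ndufa4 was at 3416 CPM in rods and 129 CPM in microglia (26.5-fold), and Ndufb11, an accessory subunit of complex I, at 1193 and 108 CPM (11.1-fold). Sdhb was at 92.1 and 68.1 CPM (1.35-fold), and its interval included 1. In OIR it was the other way round, at 93.3 CPM in rods and 155 CPM in microglia.

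**Figure D4:**
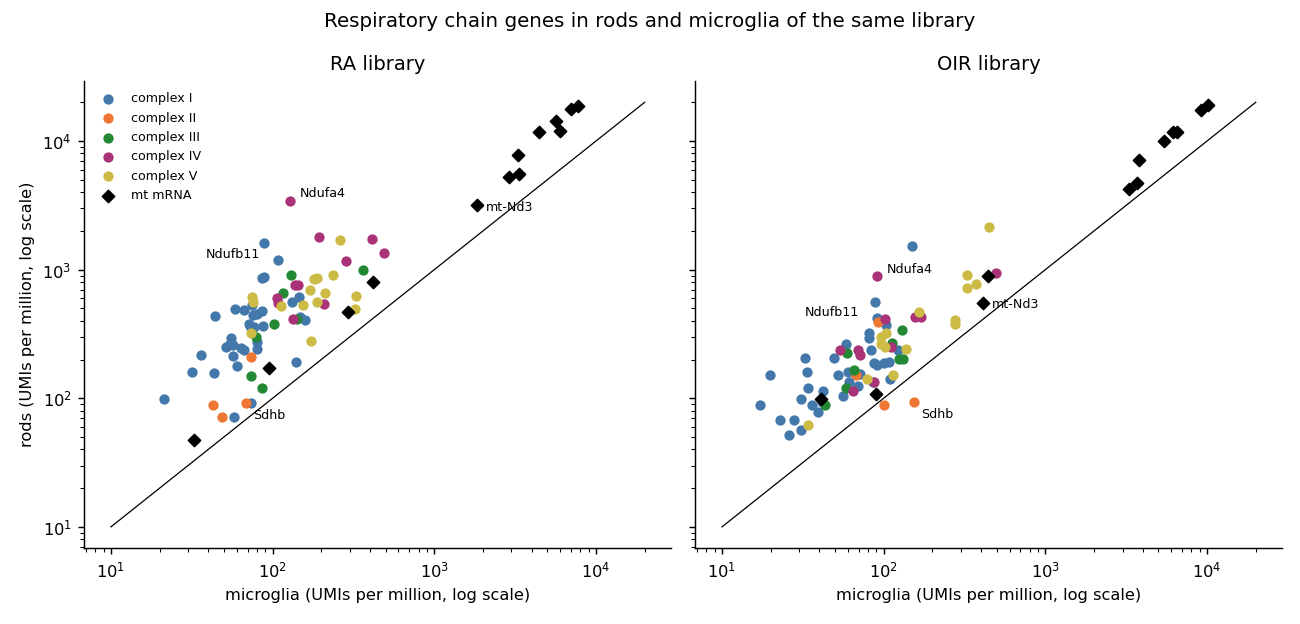
Level in rods against level in microglia of the same library (CPM, both axes log) for each nuclear subunit (coloured by complex) and mt mRNA (black diamonds); the line marks equal levels. In RA no subunit is lower in rods by 1.5-fold, Ndufa4 lies farthest above the line (26.5-fold), and in OIR Sdhb falls below it.

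The other comparisons within a library were smaller. In RA monocytes the nuclear subunits were 1.63-fold above microglia, with 44 of 74 higher and none lower (27.1% and 19.1% of all genes), and all 11 complex IV subunits were higher, with Cox5a 2.82-fold. Their mt mRNAs went the other way, at a log2 ratio of -0.39, with 5 of 13 lower. In OIR the monocyte excess was 1.20-fold, with 9 of 73 higher and 1 lower (23.1% and 12.9% of all genes). Macrophages differed from microglia by a log2 ratio of 0.18 in RA, with 3 of 74 nuclear subunits higher and 1 lower (12.4% and 12.8% of all genes), and of 0.23 in OIR, with 9 of 73 higher and none lower (14.2% and 10.4%). Cluster 4, a cluster without a name that was led by Rpgrip1, Rp1, Neurod1 and Grk1, had nuclear subunits at 23078 CPM in RA and 14321 CPM in OIR (-0.69, -0.73 to -0.65), while its mt mRNAs had a log2 ratio of 0.14. In RA its nuclear subunits were 2.51-fold above microglia, with 61 of 74 higher and none lower (47.7% and 28.8% of all genes), and its mt mRNAs 1.23-fold, with none of 13 past 1.5-fold. In OIR these were 1.82-fold, with 44 of 74 higher and 2 lower (48.9% and 28.6%), and 1.18-fold.

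Several subunits have paralogues that other tissues use, and these were close to absent from the phagocytes. Cox4i2, the form of subunit 4 linked to low oxygen, had 9 UMIs in RA and 11 in OIR microglia, Cox6a2 had 21 and 4, and Cox7a1, the muscle form, had 7 and 4, whereas their partners Cox4i1, Cox6a1 and Cox7a2 had 3745, 1023 and 1095 UMIs in RA. Cox7a2l, a relative of Cox7a2 that helps complexes join into supercomplexes, stood at 415 and 448 CPM (0.11). Ndufa4l2, the hypoxia-induced relative of Ndufa4, had no UMI in 729 RA microglia and 4 UMIs in 389 OIR microglia. In rods it had no UMI in RA and 9 UMIs (46.6 CPM) in 7 OIR cells. With RA set to 3 UMIs (10.2 CPM) this was 4.56-fold higher, a ratio that rests on the set value and is not a lower bound. Cluster 4 showed the same, with no UMI in 109 RA cells and 20 UMIs (46.2 CPM) in 14 of 75 OIR cells. With RA set to 3 UMIs this was 10.98-fold higher. Ndufaf5, an assembly factor of complex I, was the member farthest from microglia in rods, with 198 CPM against 1.96 CPM in RA (101-fold; 58 and 15 UMIs), and it went to 82.9 CPM in OIR rods (-1.25, -2.15 to -0.44). Ndufaf5 was named after its values were seen.

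Other genes of mitochondrial metabolism were read from lists, to be set against the 15.3% of all genes higher and 12.2% lower in microglia. Of 14 citric acid cycle genes at 20 CPM in microglia, 6 were higher and none was lower, with a median log2 ratio of 0.47. Idh3a, a subunit of isocitrate dehydrogenase, went from 17.6 to 40.5 CPM and Mdh2, malate dehydrogenase, from 84.3 to 166 CPM. Among 8 genes of nucleotide and phosphate carriers and coupling, 6 were higher and 1 was lower (median 0.71). The higher ones include Vdac1, Vdac2 and Vdac3, channels of the outer membrane. The uncoupling protein Ucp2 went from 404 to 757 CPM and the adenine nucleotide carrier Slc25a4 had a log2 ratio of 0.92, while Atpif1, the inhibitor of ATP synthase with a transcript of 539 bases, went from 182 to 106 CPM. Of 9 antioxidant genes 5 were higher and none lower (0.62), with Sod2, the superoxide dismutase of the matrix, at 65.1 and 140 CPM. Of 7 genes of electron carriers and entry 3 were higher and none lower (0.42). Of 12 assembly factors outside the rule 5 were lower and none higher, although the median was 0.27. The 5 are annotated at 444 to 829 bases, among them Cox17, the copper chaperone of complex IV, from 65.0 to 20.9 CPM. Mitochondrial ribosomal proteins had 11 of 58 higher and 6 lower (0.36), and regulators of mitochondrial DNA expression 1 of 10 higher and 2 lower (-0.20). The hypoxia-related list had 2 of 8 higher and none lower (0.085), with Bnip3, a mitophagy receptor, at 41.9 and 103 CPM. Its ratios went both ways, with Higd1a at -0.51 (-0.78 to -0.24) and Pink1 at -0.47 (-0.74 to -0.20). In rods the citric acid cycle list had 3 of 12 higher and none lower, where 28.3% of all genes were higher and 17.4% lower.

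A second clustering of microglia and neighbouring cells gave 8 numbered groups, and nuclear and mt members parted in 1 of them. Each group was set against groups 0 and 1, the bulk of the microglia, in the same library. Group 4 was led by Lgals3, Spp1, Gclm, Slc48a1 and Prdx1 and held 10 RA and 79 OIR cells. In OIR its nuclear subunits stood above the bulk (log2 0.60, 0.55 to 0.65), with 46 of 74 higher and none lower, where 18.8% of all genes were higher and 40.7% lower. Its mt mRNAs were below (-0.91, -0.94 to -0.87), with 12 of 13 lower and none higher. mt-Cytb was at 2837 CPM in the group and 6160 CPM in the bulk (-1.12), and mt-Co1 at 3226 and 6522 CPM (-1.02). The median mt share per cell was 1.45%, against 5.06% in group 0. In RA the 10 cells of group 4 had both above the bulk (nuclear 1.31, mt 0.91). These cells were shallow, with a median of 2392 UMIs in OIR, and 94.9% of them lacked a Malat1 UMI, and the part of either in the result was not tested.

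Group 2, led by Cryba4, Crybb1 and Fabp5, had nuclear subunits at 0.67 and mt mRNAs at 0.44 above the bulk in OIR. Group 3, led by Pf4, Clec4n and Mrc1, had 65 of 74 nuclear subunits higher and none lower (31% and 26.7% of all genes), with a log2 ratio of 0.92, and mt mRNAs at 0.079. Like group 4, groups 2 and 3 were shallow in OIR, with medians of 2454 and 2346.5 UMIs. A Malat1 UMI was lacking in 87.6% and 80.9% of their OIR cells, and the part of either in these ratios was not tested. The dividing group 5, led by Mki67 and Top2a, had 0.23 for nuclear subunits and 0.12 for mt mRNAs in OIR, with 7 nuclear subunits higher and none lower (18.7% and 5.83% of all genes).

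**Figure D5:**
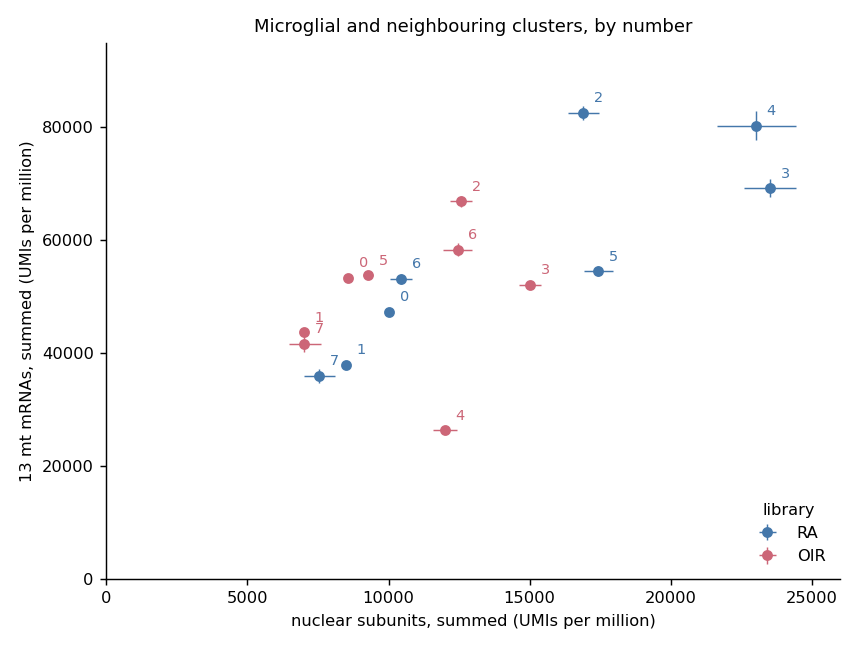
Summed level of the 13 mt mRNAs against that of the nuclear subunits (CPM, linear axes) in the 8 groups of the second clustering, numbered 0 to 7, in RA (blue) and OIR (red); bars are exact Poisson 95% intervals. OIR group 4 lies alone at the bottom, below groups 0 and 1 on the mt axis (log2 -0.91) and to their right on the nuclear axis (log2 0.60).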

How the data were processed

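Single-cell RNA-Seq was done on CD11b and F4/80 positive retinal cells of RA and OIR pups, 1 library each. Each deposited matrix holds UMI counts, unnormalized, that the authors produced with Cell Ranger (3.1.0 per the file headers). The submitters' processing notes name mm10 and Seurat 4.0. No column of another series was present (0).

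Following the study's methods, cells above 20% mt UMIs and those in the upper 2% for genes detected were removed. Libraries were integrated with Seurat 5.3.0 (R 4.3.3) using CCA (3000 anchor genes, 30 dimensions), then clustered (20 neighbours, resolution 0.5, seed 1). Scrublet in scanpy 1.11.5 marked 4 RA cells (0.276%) and 2 OIR cells (0.159%) as doublets; they were kept in the main values, and so low a share leaves doublets weakly checked. Clusters took a name where at least 3 of their 10 leading genes were markers of it. Failing that, a cluster was named microglia where the microglial list fitted best, with a median log2 ratio of 0.3 or more. Shallow clusters, with a median UMI count far below that of the library, could not be named by this median. The rule was set after the data had been seen. Clusters with a C1qa UMI in 75% or more of their cells, other than those named macrophages or monocytes (1624 cells in all), entered the second clustering. UMIs were summed per class and library (Python 3.11.15, numpy 2.4.6, pandas 2.3.3, scipy 1.17.1). Intervals are exact Poisson for levels, exact conditional binomial for ratios. A level of 0 was given a floor of 3 UMIs. Class depth ranged from 192961 UMIs in OIR rods to 7660369 in RA microglia. Intervals cover counting error alone. The calculations were tested on simulated data.

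Transcript lengths (the shortest transcript with the longest coding sequence) came from GENCODE M1, an annotation of an older build (NCBIM37) than that of the counts, matched by gene identifier, and 105 of 106 members had a length. Promoters came from RefSeq (GRCm38.p6). Length classes were cut at 500, 600, 700, 800, 1000, 1500 and 2000 bases. Genes were named by rule, namely the mt mRNAs, complex II, the 2 highest and 2 lowest ratios of each complex in microglia, paralogue sets and core subunits; others are said to be chosen after their values were seen, and genes outside the members were picked from their lists as examples in the same way. Members, lists and rules were chosen with earlier results of these data known. UMIs of processed copies were left as counted, and reads of overlapping genes and paralogues could be split by the counting. The alternatives were edgeR 4.0.16 (TMM) and DESeq2 1.42.0 size factors, other denominators, other filters on cells, genes and folds, resolution 0.8, no integration, thinning to 1000 UMIs, means over cells and centring on transcript length. Some genes are not reported here. Assays other than sequencing were not used here.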

Additional observations from a re-analysis of the deposited data

Results flagged for a closer look

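Cells above the limit of 20% mt UMIs were left out of the main comparisons and still held respiratory chain mRNA. In these 125 RA cells the 13 mt mRNAs took 39.8% of 177110 UMIs, and in the 55 OIR cells they took 42.8% of 84991 UMIs. They were flagged because this signal lies in data outside the main measurement. Nuclear subunits took 2.10% of UMIs in the RA cells and 0.857% in the OIR cells. mt-Nd3 made up 3.73% of their mt UMIs in RA and 0.731% in OIR, so the difference seen in the 4 cell classes was also present here.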

How the results depend on the processing

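Of the summary values recomputed under other settings, 155 stayed within counting error or 1.5 times the count and 89 moved. Of the single-gene values 2876 stayed, 399 moved and 28 changed sign. Over all settings the log2 ratio of the nuclear subunits ran from -0.31 to 0.068 in microglia, -0.32 to 0.039 in macrophages, -0.78 to -0.17 in monocytes and -1.13 to -0.46 in rods, so that of rods and monocytes kept its direction. That of the mt mRNAs ran from 0.11 to 0.21, -0.048 to 0.12, 0.0052 to 0.21 and -0.38 to -0.049. The causes of the moves below were not tested, except where the setting itself changes the denominator or the genes. Counts of higher subunits below have no share of all genes beside them and are not read as results about the subunits.

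Centred on genes of like length, the nuclear and mt ratios were 0.068 and 0.15 in microglia, 0.039 and -0.048 in macrophages, -0.17 and 0.21 in monocytes and -0.46 and -0.049 in rods. Single genes changed sign there. In microglia they were mt-Atp8 (0.28), mt-Nd6 (0.26) and Uqcr11 (0.23). In macrophages they were mt-Atp8 (0.24), Uqcr11 (0.13), Atp5e (0.12), Cox6a1 (0.11) and Ndufa4 (0.65). In monocytes they were mt-Atp8 (1.06), mt-Nd4l (0.34), Ndufb2 (0.22), Ndufa3 (0.080) and Ndufa4 (0.41). In rods they were mt-Atp8 (1.31), Ndufb2 (0.55), Uqcr11 (0.31), Atp5e (0.051), Ndufa4 (0.16) and Atp5g1 (0.24). For mt-Atp8 and mt-Nd4l the annotated length is not that of the shared mRNA, so their centred values are not read as results.

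Nuclear and mt ratios per UMI without mt and ribosomal protein genes were -0.31 and 0.11 in microglia, -0.25 and 0.034 in macrophages, -0.78 and 0.0083 in monocytes and -1.06 and -0.26 in rods. Under TMM they were -0.28 and 0.15, -0.31 and -0.020, -0.75 and 0.040, and -1.13 and -0.33, and under DESeq2 size factors -0.28 and 0.14, -0.32 and -0.031, -0.75 and 0.033, and -1.12 and -0.32. Higher subunits then numbered 4 in monocytes under both and 2 in rods under TMM. Per UMI that is not mitochondrial, the microglial mt ratio was 0.20, and against groups 0 and 1 the nuclear and mt ratios of group 2 in RA were 0.93 and 1.01, the mt ratio of groups 3 and 4 in RA 0.74 and 0.97, and that of groups 2 and 4 in OIR 0.47 and -0.94. At 2-fold 2, 9, 1 and 1 subunits were higher in microglia, macrophages, monocytes and rods.

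Without the mt limit the mt ratio was 0.21 in microglia, 0.18 in monocytes and -0.38 in rods, Cox4i2 in macrophages changed sign to -1.70, and the levels in RA and OIR were 43433 and 50372 CPM for mt in microglia, 48545 and 51960.0 CPM for mt in macrophages, 15787 and 10126 CPM for nuclear and 34482 and 38992 CPM for mt in monocytes, 41134 CPM for nuclear in RA rods and 129945 and 99658 CPM for mt in rods. With a limit of 10% the microglial mt ratio was 0.21, rods had -0.88 (nuclear) and -0.066 (mt), and Sdhc in rods changed sign to -0.14. With no limit on gene number the mt ratio was 0.21 in microglia, 0.0052 in macrophages, 0.0052 in monocytes and -0.19 in rods, and the monocyte nuclear ratio was -0.52. Cells with at least 2000 UMIs gave rod levels of 41455 CPM (nuclear, RA) and 93338 and 82404 CPM (mt). Rods with a Malat1 UMI, 29 RA and 10 OIR cells, gave -1.02 (nuclear) and -0.31 (mt), and mt-Atp8 changed sign to 0.016. There 10 subunits were higher, but these OIR cells held 13939 UMIs in all, so this count rests on few UMIs.

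Means over cells gave -0.28 and 0.15 in microglia, 0.082 for mt in macrophages, -0.61 for nuclear in monocytes and -0.11 for mt in rods, and Ndufa4l2 in macrophages changed sign to -0.29. Thinned cells gave -0.28 and 0.14 in microglia and 0.051 for mt in monocytes, and Cox6a1 (0.50) and Ndufs8 (-0.11) in macrophages and Sdhd (-0.17), Ndufa3 (0.24) and Uqcrc2 (-0.76) in monocytes changed sign. Without integration the nuclear ratio was -0.21 in microglia and -0.22 in macrophages and the mt ratio 0.18 in monocytes. All matches of the rule gave -0.21 in microglia. In a setting added after seeing the data, microglia with clusters 3, 5 and 8 gave -0.12 and 0.16 with 23 subunits higher. No microglial cluster was led by rod genes, so leaving such clusters out had nothing to remove. No paired analysis was possible because each condition had 1 library, and for the same reason no replicate could be left out. Depth limits rods most, where many subunits rest on fewer than 100 UMIs.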

Other observations

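A small set of OIR cells was rich in Ndufa4l2 and Cox4i2. Of all kept cells, 8 held UMIs of at least 3 of the 4 pericyte markers Pdgfrb, Rgs5, Kcnj8 and Cspg4, a rule chosen after the data had been seen, and all 8 were from OIR and lay in the dividing cluster. Pericytes are the mural cells of capillaries. These 8 cells held 163 of the 170 Ndufa4l2 UMIs of that cluster in OIR, or 1633 CPM (95% Poisson interval 1392 to 1904), and 28 of its 39 Cox4i2 UMIs (281 CPM). Ndufa4 was at 20.04 CPM in them, on 2 UMIs in 1 cell, and Cox4i1 at 862 CPM. C1qa, a microglial gene, had 1 UMI. No RA cell met the rule, so these cells could not be compared with RA. Cox4i2 was still found in RA cells of the dividing cluster, with 21 UMIs in 3 of 31 cells (58.5 CPM).

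In cluster 3, an unnamed cluster led by Fabp5, Gclm, Slc48a1, Prdx1 and Lgals3, both kinds of member were lower in OIR. Its nuclear subunits went from 18978 to 12103 CPM (log2 ratio -0.65) and its mt mRNAs from 78023 to 48442 CPM (-0.69), and the median mt share per cell was 6.69% in RA and 2.82% in OIR. In this cluster 81.0% of cells lacked a Malat1 UMI. In the second clustering, group 4 shares the leading genes Gclm, Slc48a1, Prdx1 and Lgals3 with cluster 3, and group 2 shares Fabp5. Group 4 held 10 RA and 79 OIR cells, with mt mRNAs at 80266 and 26292 CPM. Group 2 held 61 RA and 105 OIR cells, with mt mRNAs at 82581 and 66870 CPM. Nuclear subunits were also lower in OIR in both groups. The parts of the missing Malat1 and of a differing mix of such cells in the cluster 3 result were not tested.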
